A study of Homo sapiens with 6 samples.

Results

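Among 67060 genes in a table of raw RNA-seq counts, 51 are genes that human cells use to copy their DNA. They were listed by name for their role at the G1/S transition and at the replication fork. The cells were SH-SY5Y, an established human neuroblastoma line that the labels call a neuronal progenitor. The treated group was infected with Ad CMV 3xFlag-*Esrrg*, an adenovirus in which the CMV promoter drives the mouse *Esrrg* coding sequence with a 3xFlag tag. *Esrrg* encodes estrogen-related receptor gamma (ERRγ), an orphan nuclear receptor known for its control of mitochondrial genes. The control group received Ad CMV GFP, so both groups carried an adenovirus and no uninfected cells were compared. Each dish had 0.5 µl of virus according to the labels, and RNA was collected 24 h later from 3 samples per group (replicates 1, 3 and 4 with GFP, and 2, 3 and 4 with *Esrrg*). Nothing in the labels says that these came from separate cultures, so p-values measure the spread between these samples only.

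DNA replication starts when the origin recognition complex, CDC6 and CDT1 load the MCM2-7 helicase onto DNA in G1. In S phase CDC45 and the GINS complex switch the helicase on, polymerase alpha-primase lays down primers, and polymerases delta and epsilon extend them while held by the PCNA clamp, which the RFC complex loads. Many of these genes are transcribed at the G1/S boundary by the E2F factors, among which E2F1 and E2F2 activate and E2F7 and E2F8 repress. In a neuroblastoma line such genes are markers of proliferation.

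Gene counts summed to 24969759 to 29700980 in the GFP libraries and to 26513620 to 40859666 in the *Esrrg* libraries. Human *ESRRG* counts, which hold the cells' own message and those viral reads that align with the human gene, rose from 86.96 ± 3.397 CPM to 706 ± 119 CPM (SD, n = 3 per group; log2 fold change 3.02 ± 0.14 SE, edgeR adjusted p = 6.28e-07). CPM here are counts per 1000000 reads scaled by edgeR's TMM factors. The *Esrrg* libraries differed from each other in the reads that HTSeq assigned to no feature. Such reads can lie between genes, in introns or on an uncounted strand, which the counts do not tell apart. They made up 46.6% of replicate 2, but 31.6% and 29.5% of replicates 3 and 4, against 51.3% to 52.2% with GFP. Reads ambiguous between genes made up 5.69%, 9.84% and 9.79% of *Esrrg* replicates 2, 3 and 4, against 4.55% to 4.87% with GFP. Reads aligned to several places made up 9.33%, 12.7% and 13.0%, against 7.16% to 7.41% with GFP. Among neuroblastoma markers, *PHOX2A*, *HAND2*, *GATA3*, *ISL1*, *DBH* and *STMN2* were detected, while *TH* and *CHGA* were at 0 counts in all 6 libraries. For *CHGA*, 90.3% of its 31-base words also stand in alternate contigs of GRCh38, where reads would count as aligned to several places. All 8 mesenchymal markers were detected and summed to 4475 to 4604 CPM (unscaled) with GFP and 3434 to 4004 CPM with *Esrrg*. In the TMM-scaled fit their median log2 fold change was 0.0061, with 4 above 0 and 4 below. The 8 markers of blood, epithelium and endothelium summed to at most 4.79 CPM (unscaled) in every library.

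Of the 51 replication genes, 50 passed the filter on low counts and 12 of these (24%) were called higher in *Esrrg*-infected cells, at a Benjamini-Hochberg adjusted p below 0.05 over 24500 genes and a fold change of at least 1.5. The same call was made for 17.3% of all tested genes and 25.9% of the 13746 protein-coding ones. The 12 genes were *MCM2*, *MCM5*, *MCM7*, *CDT1*, *GINS3*, *RFC2*, *POLD1*, *POLD2*, *RPA2*, *FEN1*, *TK1* and *CHAF1A*. Only *E2F8* was called lower (2%), against 16.8% of all tested and 12.4% of protein-coding genes. The median log2 fold change over the 50 genes was 0.33, beside 0.12 over protein-coding genes and -0.10 over all genes tested. Without the fold cutoff 23 genes (46%) were higher and 6 (12%) lower, where protein-coding genes gave 37.6% and 22.4%. The 2 groups of libraries did not overlap for 29 of the 50 genes (58%), a count to read beside 70.3% of protein-coding genes. In bulk RNA, a changed share of cells in S phase and a changed level of these messages per cell cannot be told apart.

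**Figure D1:**
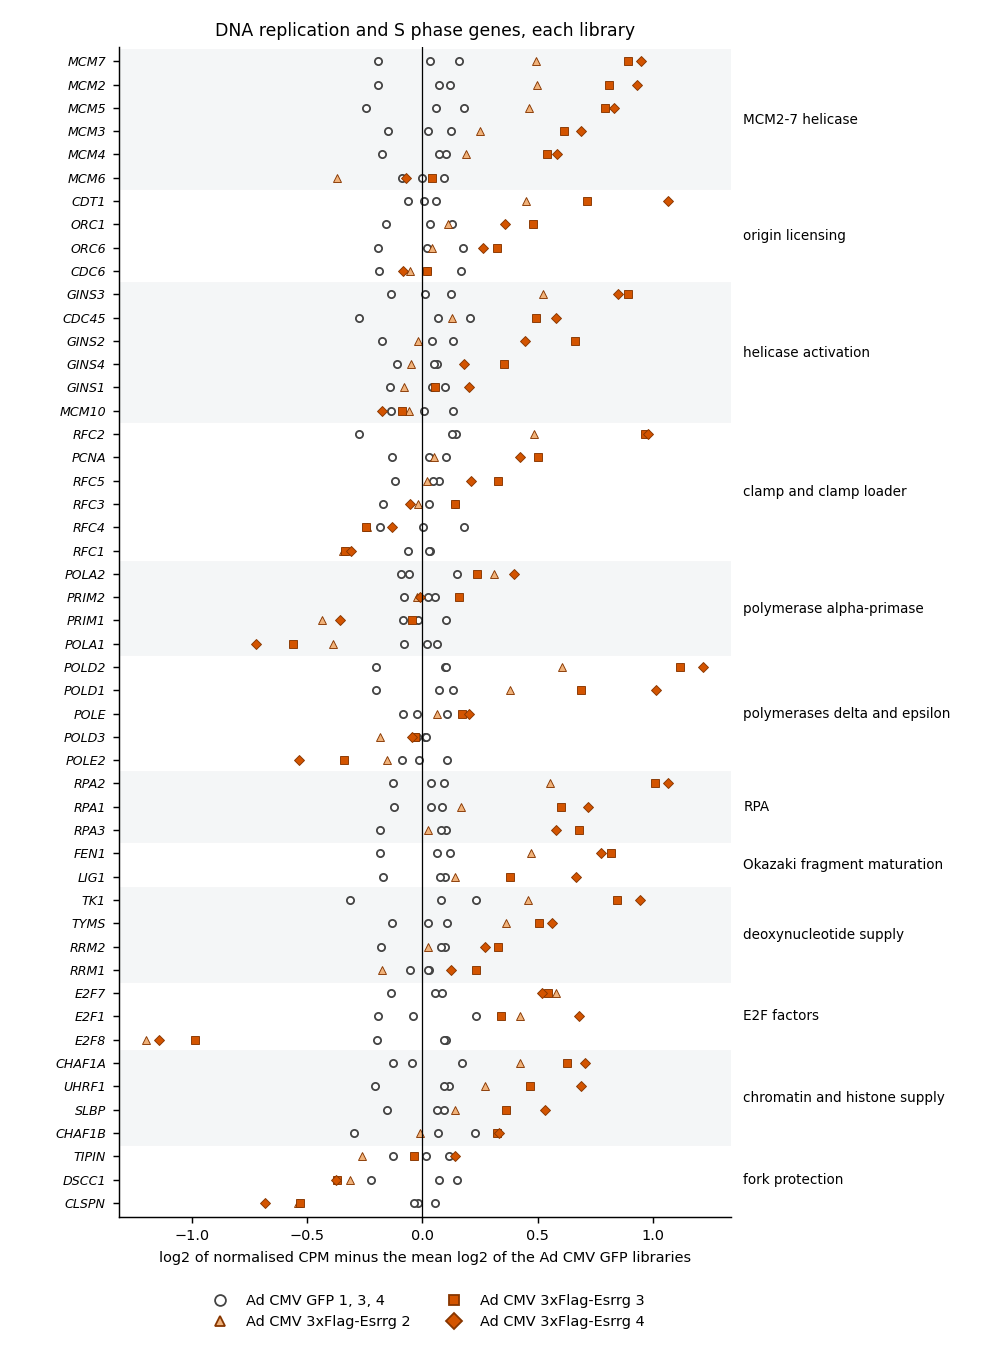
Each row is 1 of the 50 tested genes and the horizontal axis is the log2 of its normalised CPM minus the mean log2 of the Ad CMV GFP libraries. Open circles are the 3 GFP libraries, the triangle, square and diamond are *Esrrg* replicates 2, 3 and 4, and the triangle is the lowest *Esrrg* value for all 12 genes called higher.

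*Esrrg* replicate 2 gave the lowest of the 3 *Esrrg* values for 39 of the 50 genes, and for all 12 called higher. These values are scaled by TMM factors of 1.01 for replicate 2, 0.848 for replicate 3 and 0.835 for replicate 4. The same share was not counted over protein-coding genes, so it is not shown to be particular to the replication genes. Without that library 23 genes were called higher and 1 lower, with a median log2 fold change of 0.54 where protein-coding genes had 0.26. The share of protein-coding genes called higher was then 34.2%. Replicate 2 also had the lowest *ESRRG* level of its group, 569.6 CPM against 772 and 778 CPM, and the most reads assigned to no feature. The part of either in these values was not tested. Among the 12 genes, *POLD2* was called higher under 17 of the 19 processing alternatives, *RPA2* under 16, *GINS3* and *RFC2* under 15, and the other 8 under 7 to 13. Their log2 fold changes were above 0 under all 19. A changed fold cutoff and the test against a 1.5-fold threshold keep the fold changes of the fit, so no sign could turn there. Without the fold cutoff no call of these 12 genes could be lost. At a 2-fold cutoff none could be kept, as each was under 2-fold.

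Levels per length of exon differed widely before any comparison. Scaled to counts per kb of exon and per 1000000 over protein-coding genes, *PCNA* stood highest with Ad CMV GFP at 209.9, followed by *MCM7* at 151 and *MCM3* at 95.8. The lowest tested genes were *POLA2* at 1.555, *GINS3* at 8.83 and *E2F8* at 9.07. *E2F2* had 0 counts in 5 libraries and 1 count in *Esrrg* replicate 2, so it was not tested. Such counts do not tell a low level from reads lost in alignment or counting. Only 2.80% of the 31-base words of *E2F2* also stand in alternate contigs. Exon lengths are unions over annotated transcripts, which lowers the level of a gene with many long isoforms.

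Promoters were compared because E2F factors act there and the list holds both activating and repressing E2Fs. RefSeq promoters (250 bases before to 50 after the start, GRCh38.p14) were matched for 43 of the 51 genes, and *MCM4*, *MCM5*, *GINS4*, *POLD3*, *RPA2*, *RPA3*, *E2F8* and *DSCC1* had no entry. The E2F motif, searched on both strands as TTTCCCGC, TTTGGCGC, TTTCGCGC or TTTGCCGC, was present in 21 of the 43 (48.8%), against 3.33% of 27305 promoters in all and 4.44% of 15843 promoters of protein-coding genes. A CCAAT box stood in 60.5%, against 35.7% and 36.4%. The cell cycle homology element (TTTGAA or TTCGAA) stood in 4.65%, against 16.6% and 13.5%. The ERR response element TNAAGGTCA was found in 0 of the 43, and in 0.963% and 0.638% of the other promoter sets. A set of 6 windows of 60 bases before the start is printed for genes with different values: *MCM7* and *CDT1*, called higher, *E2F1* and *PCNA*, higher by less than 1.5-fold, *MCM6*, which did not pass the test, and *POLA1*, lower by less than 1.5-fold. Capitals mark the E2F motif on either strand. In *MCM6* the capitals are 2 overlapping matches, TTTGGCGC and the reverse complement of TTTCGCGC.
MCM7: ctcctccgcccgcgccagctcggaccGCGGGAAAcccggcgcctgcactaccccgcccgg
CDT1: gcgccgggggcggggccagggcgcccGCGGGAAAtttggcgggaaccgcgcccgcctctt
E2F1: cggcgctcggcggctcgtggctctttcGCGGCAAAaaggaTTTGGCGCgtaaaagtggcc
PCNA: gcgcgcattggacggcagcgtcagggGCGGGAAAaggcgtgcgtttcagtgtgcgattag
MCM6: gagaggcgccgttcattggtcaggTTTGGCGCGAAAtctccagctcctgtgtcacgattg
POLA1: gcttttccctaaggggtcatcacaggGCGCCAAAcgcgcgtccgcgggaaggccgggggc
Their positions in GRCh38.p14 are chr7:100101551-100101610 (- strand) for *MCM7*, chr16:88803728-88803787 (+ strand) for *CDT1*, chr20:33686386-33686445 (- strand) for *E2F1*, chr20:5126648-5126707 (- strand) for *PCNA*, chr2:135876498-135876557 (- strand) for *MCM6* and chrX:24693755-24693814 (+ strand) for *POLA1*, each printed 5′ to 3′ on the strand of its gene. Genes with the motif did not stand together in their change. The 20 tested genes with it had a median log2 fold change of 0.36 and ranged from -0.58 (*CLSPN*) to 0.79 (*MCM7*), with 4 called higher. The 22 tested genes whose promoter lacked it had a median of 0.27 and ranged from -0.33 (*RFC1*) to 1.00 (*POLD2*), with 6 called higher. Both counts are to be read beside the 25.9% of protein-coding genes called higher, whose median was 0.12.

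The MCM2-7 helicase unwinds DNA ahead of the fork as a ring of 6 different subunits in equal numbers. Of its 6 messages 5 had an adjusted p below 0.05, all higher with *Esrrg*. Over protein-coding genes 37.6% were higher at that threshold. *MCM7* (ENSG00000166508, GRCh38 chr7:100092233-100101940) stood at 135, 172 and 158 CPM with Ad CMV GFP and 217, 287 and 298 CPM with Ad CMV 3xFlag-*Esrrg*. Every *Esrrg* library lay above every GFP library (log2 fold change 0.79 ± 0.14 SE, edgeR adjusted p = 0.00111). *MCM2* stood at 24.3, 30.3 and 29.3 CPM with Ad CMV GFP and 39.4, 48.9 and 53.1 CPM with Ad CMV 3xFlag-*Esrrg*, again without overlap (log2 fold change 0.75 ± 0.13 SE, edgeR adjusted p = 0.00097). *MCM5* had 29.5, 39.7 and 36.5 CPM with Ad CMV GFP and 48.2, 60.7 and 62.3 CPM with Ad CMV 3xFlag-*Esrrg* (log2 fold change 0.70 ± 0.13 SE, edgeR adjusted p = 0.00183). *MCM3* (0.53) and *MCM4* (0.44) were higher on the log2 scale by less than 1.5-fold, with edgeR adjusted p of 0.00632 and 0.0139. The log2 fold changes of these 5 genes were above 0 under all 19 alternatives, but the calls of *MCM2*, *MCM5* and *MCM7* were lost with library size alone (0.42, 0.36 and 0.45), with no-feature reads as a covariate (0.35, 0.32 and 0.34), and once GC content and exon length had been corrected for (0.36, 0.35 and 0.43). For *MCM2*, 23.6% of the exon bases overlap an antisense gene. *MCM6* did not share this pattern. Its values of 43.5, 49.4 and 46.2 CPM with Ad CMV GFP and 35.8, 47.7 and 44.02 CPM with Ad CMV 3xFlag-*Esrrg* overlapped, and the test did not pass (log2 fold change -0.12 ± 0.12 SE, edgeR adjusted p = 0.4).

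A share within a library does not depend on how libraries are scaled. In counts per kb of exon, *MCM6* made up 14.0% ± 0.677 of the MCM2-7 sum with GFP and 8.55% ± 0.502 with *Esrrg* (SD, n = 3 per group), with no overlap between the groups. *MCM7* made up 38.8% ± 0.654 and 44.6% ± 0.481, also without overlap. The log2 ratio of *MCM7* to *MCM6* counts was 1.63, 1.80 and 1.77 with GFP and 2.60, 2.59 and 2.76 with *Esrrg*, so *Esrrg* replicate 2 did not stand apart in this ratio. With 3 libraries against 3 an exact permutation test cannot go below p = 0.1 (two-sided), and as the pair was picked after its values were seen no test is given. Exon GC content was 56.2% for *MCM7* and 43.2% for *MCM6*. It is taken over all annotated transcripts of a gene, so an exon in several transcripts counts several times. Corrected for GC content and exon length, their log2 fold changes lay closer together, at 0.43 and 0.0074.

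**Figure D2:**
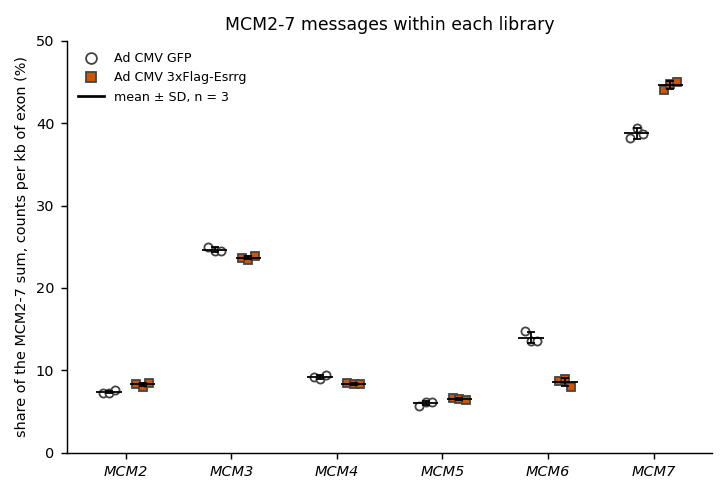
The vertical axis gives the share (%) of each of the 6 MCM messages in their sum of counts per kb of exon within a library, as single libraries (circles, Ad CMV GFP; squares, Ad CMV 3xFlag-*Esrrg*) and as mean ± SD of 3. *MCM6* goes from a mean of 14.0% to 8.55% and *MCM7* from 38.8% to 44.6%, and the groups do not overlap for either.

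Origin licensing, by which the helicase is loaded, had 1 gene called higher among 4 (*ORC1*, *ORC6*, *CDC6* and *CDT1*), with a group median log2 fold change of 0.26. Over protein-coding genes 25.9% were called higher and the median was 0.12. *CDT1* (ENSG00000167513, chr16:88803789-88809258), the loading factor that geminin inhibits, gave 11.9, 12.96 and 12.5 CPM with Ad CMV GFP and 17.02, 20.5 and 26.1 CPM with Ad CMV 3xFlag-*Esrrg* (log2 fold change 0.77 ± 0.15 SE, edgeR adjusted p = 0.00179). Its *Esrrg* values lay above all GFP values and spread more widely than the GFP values did. *CDC6*, the ATPase that works with the origin recognition complex, had 18.4, 21.2 and 23.5 CPM with Ad CMV GFP and 20.1, 21.2 and 19.8 CPM with Ad CMV 3xFlag-*Esrrg*, and the groups overlapped (log2 fold change -0.047 ± 0.11 SE, edgeR adjusted p = 0.75). *ORC1* and *ORC6*, subunits of that complex, had log2 fold changes of 0.32 and 0.21 and did not pass the test.

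Helicase activation had 1 gene called higher among 6, where 25.9% of protein-coding genes were called higher. *GINS3* (ENSG00000181938), a subunit of the GINS tetramer, stood at 8.48, 10.2 and 9.37 CPM with Ad CMV GFP and 13.4, 17.3 and 16.8 CPM with Ad CMV 3xFlag-*Esrrg* without overlap (log2 fold change 0.76 ± 0.13 SE, edgeR adjusted p = 0.000961). The 3 other GINS subunits did not pass, with log2 fold changes of 0.060 (*GINS1*), 0.39 (*GINS2*) and 0.17 (*GINS4*), and *CDC45*, their partner in the active helicase, had one of 0.40. *MCM10*, which helps the assembled helicase to start, was the lowest of the group at 22.7, 27.4 and 25.1 CPM with Ad CMV GFP and 24.1, 23.5 and 22.1 CPM with Ad CMV 3xFlag-*Esrrg*, with overlapping groups (log2 fold change -0.11 ± 0.10 SE, edgeR adjusted p = 0.391). The *GINS3* counts rest on 239 reads in the smallest library, and 10.9% of its exon bases overlap an antisense gene.

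The clamp loader RFC opens the PCNA ring and closes it around DNA, and its subunits *RFC2* and *RFC1* had log2 fold changes of opposite sign. *RFC2* (ENSG00000049541) stood at 27.9, 37.3 and 36.8 CPM with Ad CMV GFP and 47.1, 65.9 and 66.6 CPM with Ad CMV 3xFlag-*Esrrg* and was called higher (log2 fold change 0.82 ± 0.15 SE, edgeR adjusted p = 0.0016). *RFC1* gave 70.8, 70.8 and 66.4 CPM with Ad CMV GFP and 54.5, 54.9 and 55.9 CPM with Ad CMV 3xFlag-*Esrrg*, and all 3 *Esrrg* values lay below all GFP values. Its change was under the fold cutoff (log2 fold change -0.33 ± 0.09 SE, edgeR adjusted p = 0.00897). The log2 ratio of *RFC2* to *RFC1* counts was -1.35, -0.92 and -0.85 with GFP and -0.21, 0.26 and 0.25 with *Esrrg*, a change that no scaling of libraries enters. Corrected for GC content and exon length, the log2 fold changes were 0.61 (*RFC2*) and -0.099 (*RFC1*). *RFC3*, *RFC4* and *RFC5* had log2 fold changes of 0.020, -0.21 and 0.19 and did not pass. *PCNA*, the clamp itself, had a log2 fold change of 0.34 (edgeR adjusted p = 0.047) with overlapping groups. It was called higher after the GC and length correction for which values are given beside exon GC content.

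The polymerases differed by subunit. *POLD2*, an accessory subunit of polymerase delta, had the largest increase of all 50 genes: 51.7, 63.6 and 63.9 CPM with Ad CMV GFP and 90.4, 129 and 138 CPM with Ad CMV 3xFlag-*Esrrg* (log2 fold change 0.999 ± 0.16 SE, edgeR adjusted p = 0.000537), or 1.999-fold. *POLD1*, the catalytic subunit of the same enzyme, stood at 16.5, 20.8 and 19.9 CPM with Ad CMV GFP and 24.7, 30.6 and 38.4 CPM with Ad CMV 3xFlag-*Esrrg* (log2 fold change 0.71 ± 0.16 SE, edgeR adjusted p = 0.00385). The *POLD1* call was lost without *Esrrg* replicate 4. *POLD3*, another accessory subunit of delta, and *POLE*, the catalytic subunit of epsilon, had log2 fold changes of -0.086 and 0.14 and did not pass the test. *POLE2*, an accessory subunit of polymerase epsilon, gave 20.9, 23.9 and 21.96 CPM with Ad CMV GFP and 19.9, 17.6 and 15.3 CPM with Ad CMV 3xFlag-*Esrrg*. It was lower without overlap and by less than 1.5-fold (log2 fold change -0.34 ± 0.12 SE, edgeR adjusted p = 0.0363).

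Polymerase alpha-primase, which makes the RNA-DNA primers, had no called gene among 4 and a median log2 fold change of -0.11. Over protein-coding genes 25.9% were called higher and 12.4% lower, and the median was 0.12. *POLA1*, its catalytic DNA polymerase subunit, stood at 42.03, 46.4 and 45.1 CPM with Ad CMV GFP and 34.002, 30.1 and 26.97 CPM with Ad CMV 3xFlag-*Esrrg*, with all 3 *Esrrg* values below all GFP values (log2 fold change -0.55 ± 0.11 SE, edgeR adjusted p = 0.00179). It was called lower under 5 of the 19 alternatives, among them without GFP replicate 1. *POLA2* was the highest of the group at 4.26, 3.69 and 3.595 CPM with Ad CMV GFP and 4.75, 4.52 and 5.05 CPM with Ad CMV 3xFlag-*Esrrg*, and although its groups did not overlap it did not pass (log2 fold change 0.31 ± 0.15 SE, edgeR adjusted p = 0.116). At these levels *POLA2* had 114 counts in the smallest library, and 21.3% of its exon bases overlap other genes. The primase subunits *PRIM1* and *PRIM2* had log2 fold changes of -0.27 and 0.042 and did not pass either. *POLD2* and *POLA1* counts within a library gave log2 ratios of 0.30, 0.45 and 0.50 with GFP and 1.41, 2.10 and 2.36 with *Esrrg*. Their log2 fold changes were 0.63 and -0.23 under that correction.

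**Figure D3:**
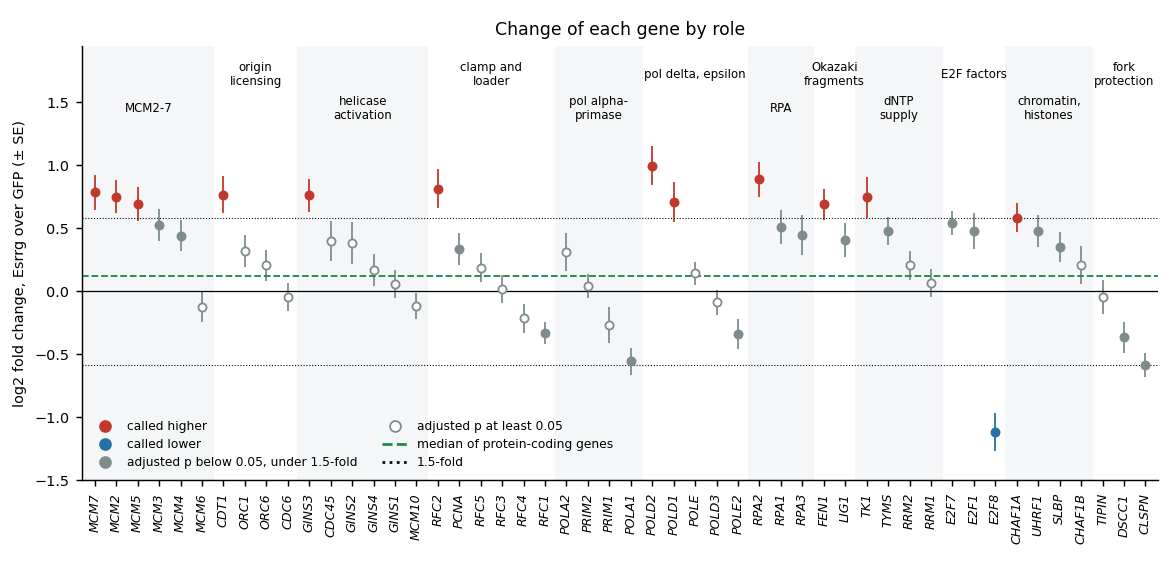
The vertical axis is the log2 fold change of Ad CMV 3xFlag-*Esrrg* over Ad CMV GFP (± SE, 3 libraries per group) for the 50 tested genes, ordered by role and then by size. Red and blue points were called, filled grey points had an adjusted p below 0.05 at under 1.5-fold and open points did not pass; the 3 fork protection genes are the only group wholly below 0 and *E2F8* is the lowest gene at -1.11.

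RPA, the trimer that coats single-stranded DNA, had all 3 messages higher at an adjusted p below 0.05, and 1 was called. Over protein-coding genes 37.6% were higher at that threshold and 25.9% were called higher. *RPA2* stood at 20.9, 23.4 and 24.4 CPM with Ad CMV GFP and 33.6, 46.02 and 47.9 CPM with Ad CMV 3xFlag-*Esrrg*, with no overlap (log2 fold change 0.89 ± 0.14 SE, edgeR adjusted p = 0.000502). *RPA3* was the lowest of the trimer at 26.2, 31.98 and 31.5 CPM with Ad CMV GFP and 30.3, 47.7 and 44.5 CPM with Ad CMV 3xFlag-*Esrrg*, with *Esrrg* replicate 2 inside the GFP range (log2 fold change 0.45 ± 0.16 SE, edgeR adjusted p = 0.0379). *RPA1* had a log2 fold change of 0.51 (edgeR adjusted p = 0.0109). The share of *RPA2* in the length-scaled sum of the trimer was 33.6% ± 0.777 with GFP and 40.2% ± 0.568 with *Esrrg*.

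Okazaki fragment maturation had 1 gene called higher among 2 and nucleotide supply 1 among 4, beside 25.9% of protein-coding genes. *FEN1*, the flap endonuclease, gave 31.2, 38.5 and 37.1 CPM with Ad CMV GFP and 49.1, 62.5 and 60.7 CPM with Ad CMV 3xFlag-*Esrrg* (log2 fold change 0.69 ± 0.12 SE, edgeR adjusted p = 0.00106). *LIG1*, the ligase that seals the fragments, had 25.9, 31.2 and 30.8 CPM with Ad CMV GFP and 32.2, 37.996 and 46.4 CPM with Ad CMV 3xFlag-*Esrrg* and stayed under the fold cutoff (log2 fold change 0.41 ± 0.14 SE, edgeR adjusted p = 0.0308). *TK1*, the cytosolic thymidine kinase of S phase, stood at 18.2, 26.5 and 23.8 CPM with Ad CMV GFP and 30.97, 40.5 and 43.4 CPM with Ad CMV 3xFlag-*Esrrg* (log2 fold change 0.75 ± 0.16 SE, edgeR adjusted p = 0.00316). The GFP values of *TK1* spread more than those of most genes here, yet all lay below the *Esrrg* values. *RRM1*, the large subunit of ribonucleotide reductase, was the lowest of its group at 63.5, 67.1 and 67.1 CPM with Ad CMV GFP and 58.4, 77.3 and 71.7 CPM with Ad CMV 3xFlag-*Esrrg*, with overlap (log2 fold change 0.070 ± 0.11 SE, edgeR adjusted p = 0.628). Its partner *RRM2* had a log2 fold change of 0.21 and did not pass. *TYMS*, thymidylate synthase, had a log2 fold change of 0.48 (edgeR adjusted p = 0.00508), but 47.9% of its exon bases overlap *ENOSF1* and *TYMSOS* on the other strand. Reads there are counted for *TYMS* alone only if strand was used in counting, which is not given in the sources used here.

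Among the E2F factors the repressors *E2F7* and *E2F8* had log2 fold changes of opposite sign. *E2F8* (ENSG00000129173, chr11:19224063-19241620) stood at 6.74, 8.31 and 8.25 CPM with Ad CMV GFP and 3.37, 3.89 and 3.49 CPM with Ad CMV 3xFlag-*Esrrg*, and it was 2.16-fold lower (log2 fold change -1.11 ± 0.15 SE, edgeR adjusted p = 0.000242). Of the 50 genes this was the only one past 2-fold in either direction, and it was called lower under all 19 processing alternatives. *E2F7* stood at 23.6, 26.96 and 27.5 CPM with Ad CMV GFP and 38.9, 37.8 and 37.2 CPM with Ad CMV 3xFlag-*Esrrg*, with 3 close *Esrrg* values above all GFP values and a change just under 1.5-fold (log2 fold change 0.54 ± 0.10 SE, edgeR adjusted p = 0.00108). The log2 ratio of *E2F7* to *E2F8* counts was 1.81, 1.70 and 1.74 with GFP and 3.53, 3.28 and 3.41 with *Esrrg*. Replicate 2 was not the lowest *Esrrg* library for this ratio, and exon GC content was close for the pair, 44.6% and 45.7%. *E2F1*, an activator, had 0.48 on the log2 scale (edgeR adjusted p = 0.0175).

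Chromatin and histone supply had 1 called gene among 4, all with log2 fold changes above 0. Over protein-coding genes 25.9% were called higher, and 7814 of 13746 were above 0. *CHAF1A*, the large subunit of chromatin assembly factor 1, stood at 20.1, 24.7 and 21.3 CPM with Ad CMV GFP and 29.5, 33.9 and 35.8 CPM with Ad CMV 3xFlag-*Esrrg* (log2 fold change 0.59 ± 0.12 SE, edgeR adjusted p = 0.002). At 1.501-fold it lay just inside the fold cutoff, and it was called under 7 of the 19 alternatives. The call was lost without GFP replicate 1 or 4 or *Esrrg* replicate 3 or 4. *CHAF1B*, its partner, was the lowest of the group at 13.4, 19.3 and 17.3 CPM with Ad CMV GFP and 16.4, 20.7 and 20.8 CPM with Ad CMV 3xFlag-*Esrrg*, with overlapping groups (log2 fold change 0.21 ± 0.15 SE, edgeR adjusted p = 0.265). *SLBP*, which binds the stem-loop of histone messages, had a log2 fold change of 0.35 (edgeR adjusted p = 0.0324), and *UHRF1*, which guides methylation of new DNA, had one of 0.48 (edgeR adjusted p = 0.0108). *CHAF1B* turned its sign with library size as the only scaling (-0.12) and with no-feature reads as a covariate (-0.16).

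The fork protection genes all had log2 fold changes below 0, and none was called. Of 13746 protein-coding genes 5932 were below 0, and 12.4% were called lower. *CLSPN*, whose product claspin carries the ATR checkpoint signal to CHK1, stood at 35.8, 37.6 and 35.3 CPM with Ad CMV GFP and 24.9, 25.04 and 22.6 CPM with Ad CMV 3xFlag-*Esrrg*. All 3 *Esrrg* values lay below the GFP values, and at 1.499-fold lower the gene fell just outside the fold cutoff (log2 fold change -0.58 ± 0.09 SE, edgeR adjusted p = 0.00059). *CLSPN* was called lower under 8 of the 19 alternatives, among them without GFP replicate 1 or 4 or *Esrrg* replicate 3. Its log2 fold change lay between -0.90 and -0.41 over the 19. *DSCC1*, a subunit of an alternative clamp loader, had a log2 fold change of -0.36 (edgeR adjusted p = 0.0332). *TIPIN*, which binds TIMELESS at the fork, was the highest of the 3 at 9.97, 11.8 and 10.997 CPM with Ad CMV GFP and 9.09, 10.6 and 12.03 CPM with Ad CMV 3xFlag-*Esrrg*, with overlap (log2 fold change -0.043 ± 0.13 SE, edgeR adjusted p = 0.81), and its sign turned under 6 alternatives.

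Change ran with the base composition of the messages. Exon GC content had a median of 57.3% (48.6% to 64.9%) for the 12 genes called higher and 43.2% (39.5% to 45.7%) for the 13 genes below 0. Over the 50 genes Pearson's r of GC content and log2 fold change was 0.70, and over the 13746 protein-coding genes it was 0.34; the points share the same 6 libraries, and both values are descriptions. All 20 replication genes at 50% GC or more were above 0, as were 4637 of 6221 protein-coding genes of that kind. Their medians were 0.56 and 0.46. Of the 30 others 17 were above 0, with a median of 0.051. Of 7525 protein-coding genes under 50% GC 3177 were above 0, with a median of -0.12. After a correction of each library for GC content and exon length 6 genes were called higher (*GINS3*, *PCNA*, *RFC2*, *POLD2*, *RPA2* and *E2F7*) and *E2F8* lower, and 20.2% of protein-coding genes were higher. *RPA2* and *E2F8* kept log2 fold changes of 0.89 and -1.08, while *MCM7* went to 0.43 and *CDT1* to 0.30. The calls of *POLD1* (0.23), *FEN1* (0.45), *TK1* (0.38) and *CHAF1A* (0.21) were also lost there.

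**Figure D4:**
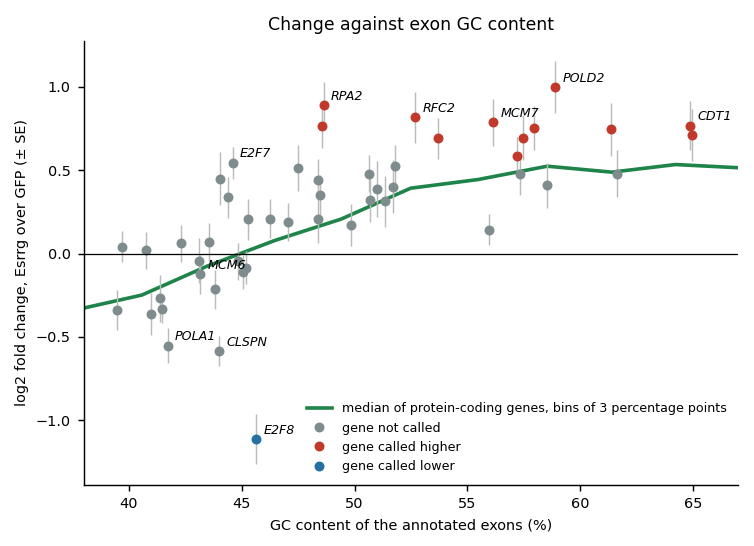
The horizontal axis is the exon GC content (%) of each gene, taken over all its annotated transcripts, and the vertical axis its log2 fold change (± SE). Points are the 50 tested genes and the line is the median of protein-coding genes in bins of 3 percentage points. Genes called higher lie between 48.6% and 64.9% GC, and *E2F8*, at 45.7% GC and -1.11, lies farthest below the line.

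Of 49 other listed genes of the pathway, 48 were tested, and *ASF1B*, at 0 counts in all 6 libraries, was not. Of the 48, 6 were called higher and 7 lower, where 25.9% and 12.4% of protein-coding genes were. Their median log2 fold change was -0.047, against 0.12 over protein-coding genes. *CDC7*, the kinase that phosphorylates the loaded helicase to start replication, fell furthest: 36.6, 36.5 and 35.5 CPM with Ad CMV GFP and 11.6, 9.24 and 9.69 CPM with Ad CMV 3xFlag-*Esrrg* (log2 fold change -1.83 ± 0.11 SE, edgeR adjusted p = 2.92e-06). All 3 *Esrrg* values lay far below the GFP values. Among licensing and firing factors, 3 of 14 were called lower and none higher; 1 was higher and 6 lower at an edgeR adjusted p below 0.05 without the fold cutoff. Protein-coding genes gave 25.9% higher and 12.4% lower with the cutoff, and 37.6% and 22.4% without it. *MCM9*, an MCM relative outside the ring, was lower at 19.4, 17.9 and 19.7 CPM with Ad CMV GFP and 12.6, 12.8 and 11.4 CPM with Ad CMV 3xFlag-*Esrrg* (log2 fold change -0.63 ± 0.10 SE, edgeR adjusted p = 0.000746). *TOP2A*, the topoisomerase that untangles copied DNA, was also lower (log2 fold change -0.77 ± 0.10 SE, edgeR adjusted p = 0.000183).

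The 6 called higher were *POLE3*, *POLE4*, *RNASEH2C*, *E2F4*, *E2F5* and *TFDP1*, the last of which encodes a DNA-binding partner of the E2Fs. *POLE4*, a histone-fold subunit of polymerase epsilon, went from 12.7 ± 1.46 CPM to 35.96 ± 10.6 CPM (SD, n = 3 per group; log2 fold change 1.501 ± 0.20 SE, edgeR adjusted p = 0.000238). *RNASEH2C*, an accessory subunit of RNase H2, went from 17.3 ± 0.473 CPM to 39.1 ± 11.3 CPM (log2 fold change 1.18 ± 0.18 SE, edgeR adjusted p = 0.000542). An antisense gene overlaps 28.9% of the *RNASEH2C* exon bases. *E2F4*, an E2F that mainly represses in resting cells, had 0.95 on the log2 scale (edgeR adjusted p = 0.000218), and *RB1*, the retinoblastoma protein that holds E2F factors in check, had a log2 fold change of -0.62 (edgeR adjusted p = 0.000277). For *POLE4* and *RNASEH2C* replicate 2 was again the lowest *Esrrg* library.

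How the libraries are scaled sets the zero for all of these genes. With library size as the only scaling, the median over protein-coding genes moved from 0.12 to -0.20 and that of the 50 genes from 0.33 to -0.0025, so 1 gene (*POLD2*) was called higher and 7 lower (*RFC1*, *POLA1*, *PRIM1*, *POLE2*, *E2F8*, *CLSPN* and *DSCC1*). Protein-coding genes then gave 13.5% higher and 25.8% lower, against 2% and 14% of the 50. Measured from the protein-coding median, the 50 genes stood at 0.21 in the TMM fit, 0.20 with library size alone, 0.23 in DESeq2, 0.21 with RLE factors and 0.20 with protein-coding genes only. The same difference was 0.11 once GC content and exon length had been corrected for. It was -0.065 with no-feature reads as a covariate. In that last fit 1 gene was called higher (*E2F7*) and 1 lower (*E2F8*), where protein-coding genes gave 9.48% and 6.93%. Genes with an adjusted p below 0.05 in the TMM fit whose log2 fold changes were below 0 there included *PCNA* (-0.079), *RPA1* (-0.0077), *RPA3* (-0.17) and *LIG1* (-0.024). The covariate was lower in all 3 *Esrrg* libraries than in any GFP library, with *Esrrg* replicate 2 nearer to the GFP libraries than to the other two of its group. The effect of the covariate and that of the virus were not separated.

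**Figure D5:**
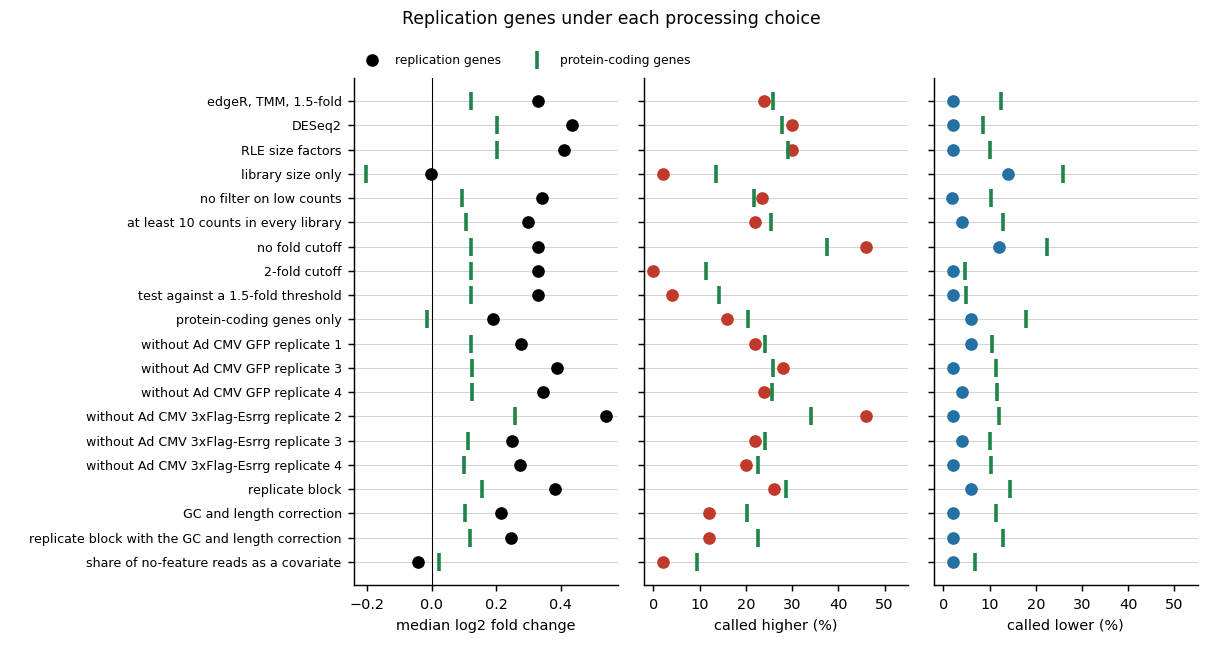
Rows are the fit of the report (top) and its 19 alternatives; dots are the replication genes and green bars the protein-coding genes, as the median log2 fold change (left) and the share (%) called higher (middle) and lower (right). The dots lie to the right of the bars in the left panel for every row but the covariate fit, and the share called lower lies below that of protein-coding genes in every row.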

How the data were processed

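Total RNA of the 6 samples was depleted of ribosomal RNA and made into strand-marking libraries. The deposited values are raw counts, whole numbers of reads per human gene that the authors made, per the labels, with Trim Galore 0.6.7, STAR 2.7.9a and HTSeq 0.11.3 on GRCh38; the strand setting and annotation release are not given in the sources used here. Identifiers were matched without version to GENCODE 44 (90.1% found). Entries for unassigned reads stayed out of library sizes; 29.5% to 52.2% of a library's reads were assigned to no feature.

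Genes that passed filterByExpr (24500) were TMM-scaled and compared with edgeR 4.0.16's quasi-likelihood test in R 4.3.3 (CPM scaled by TMM; SE taken as the size of the log2 fold change divided by the root of F; 3 libraries per group, no covariate). A gene was called at 1.5-fold and an adjusted p (Benjamini-Hochberg) below 0.05. Alternatives used DESeq2 1.42.0 and mgcv 1.9.3, other scalings, filters and cutoffs, and each library left out. The fits were also run on simulated counts with no GC trend and no odd library. That run does not bear on the scaling, the GC and length correction or the covariate. Words of 31 bases of each gene's transcripts were looked up in 261 alternate contigs; at most 16.3% of those of any replication gene stood there. Pseudogenes of replication genes held at most 14 counts.

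The genes, the lists and the alternatives were chosen with earlier results of these data known. Each called gene and the extremes of each role group are given by library; of the other lists, the called gene with the largest change in each direction with a mean of at least 50 counts. The ratios of gene pairs were picked after values were seen. Some of the listed neuroblastoma markers are not reported here.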

Additional observations from a re-analysis of the deposited data

How the results depend on the processing

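The 12 replication genes called higher became 1 with library size as the only scaling, 23 with no fold cutoff, 0 with a 2-fold cutoff, 2 in a test against a 1.5-fold threshold, 6 once GC content and exon length had been corrected for, and 1 with no-feature reads as a covariate. Protein-coding genes called higher went from 25.9% to 13.5%, 37.6%, 11.3%, 14.1%, 20.2% and 9.48% in the same order. The single gene called lower became 7 with library size alone, 2 when every library needed at least 10 counts, 6 with no fold cutoff, and 3 in a fit of protein-coding genes, while protein-coding genes called lower went from 12.4% to 25.8%, 13.0%, 22.4% and 17.95%. The cause of these moves was not tested, except that a changed fold cutoff alters the call by construction. The median log2 fold change went to -0.0025 with library size alone, 0.19 in the fit of protein-coding genes and -0.042 with the covariate. DESeq2 and RLE size factors each called 15 higher and 1 lower. Protein-coding genes gave 27.7% higher and 8.49% lower in DESeq2, and 29.1% and 10.2% under RLE factors. Leaving out 1 library at a time gave 10 to 23 genes higher, 1 to 3 lower and a median of 0.25 to 0.54, with the highest count and median without *Esrrg* replicate 2. The 3 lower calls came without GFP replicate 1, and 2 each without GFP replicate 4 and *Esrrg* replicate 3. Protein-coding genes gave 22.6% to 34.2% higher and 10.2% to 11.99% lower over the same fits, with a median of 0.10 to 0.26. Each of these protein-coding values was also highest without *Esrrg* replicate 2.

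Of the other replication genes, 6 called higher became 11 with no fold cutoff, 3 with a 2-fold cutoff and 2 with the covariate. Protein-coding genes called higher were 37.6%, 11.3% and 9.48% in the same order. The 7 called lower became 4 in DESeq2, 4 under RLE factors, 17 with library size alone, 16 with no fold cutoff, 1 with a 2-fold cutoff, 1 in the test against 1.5-fold, 1 with GC content and length corrected for, and 3 with the covariate. Protein-coding genes called lower were 8.49%, 10.2%, 25.8%, 22.4%, 4.64%, 4.87%, 11.5% and 6.93% in the same order. Leaving out 1 library gave 6 to 6 higher and 4 to 8 lower, with the 4 without *Esrrg* replicate 4. Protein-coding genes gave 22.6% to 34.2% higher and 10.2% to 11.99% lower in these fits, with 10.3% lower without *Esrrg* replicate 4.

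Only replicate numbers 3 and 4 stand in both groups, and same-numbered libraries did not deviate together (r of 0.075 and -0.0001), so the number is not shown to pair them. GFP replicate 1 and *Esrrg* replicate 2 each form a block of their own, so fold changes under the replicate block rest on replicates 3 and 4. With that block 13 replication genes were called higher and 3 lower, where protein-coding genes gave 28.7% and 14.5%. Adding the correction to the block left 6 higher, with 3 of the other replication genes lower in that fit. Protein-coding genes then gave 22.7% higher and 12.9% lower. Log2 fold changes turned sign under the block for *RFC3* (-0.041), and under the block with the correction for *MCM6* (0.091), *PRIM1* (0.028), *POLD3* (0.023), *POLE* (-0.15), *E2F1* (-0.084) and *TIPIN* (0.18).

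None of the 13 called replication genes turned sign under any of the 19 alternatives. These include the changed fold cutoffs and the test against 1.5-fold, under which no sign can turn. Among genes that were not called, log2 fold changes did so with library size alone for *ORC1* (-0.0084), *ORC6* (-0.12), *GINS1* (-0.27), *GINS4* (-0.16), *RFC3* (-0.30), *RFC5* (-0.14), *POLA2* (-0.010), *PRIM2* (-0.28), *POLE* (-0.18), *RRM1* (-0.26), *RRM2* (-0.12) and *CHAF1B* (-0.12). With the covariate they did so for *ORC6* (-0.054), *CDC45* (-0.045), *GINS1* (-0.17), *GINS2* (-0.19), *GINS4* (-0.14), *PCNA* (-0.079), *RFC3* (-0.041), *RFC5* (-0.056), *PRIM2* (-0.043), *RPA1* (-0.0077), *RPA3* (-0.17), *LIG1* (-0.024), *RRM1* (-0.27), *RRM2* (-0.071) and *CHAF1B* (-0.16). The GC and length correction turned *MCM6* (0.0074), *CDC6* (0.033), *POLE* (-0.095) and *TIPIN* (0.11), and DESeq2 turned *CDC6* (0.046), *POLD3* (0.0083) and *TIPIN* (0.053). RLE factors turned *CDC6* (0.032) and *TIPIN* (0.039), a fit of protein-coding genes turned *GINS1* (-0.078), *RFC3* (-0.11), *PRIM2* (-0.094) and *RRM1* (-0.070), and the filter at 10 counts turned *RFC3* (-0.0088). Leaving out 1 library gave -0.21 to 0.093 for *MCM6*, -0.13 to 0.070 for *CDC6*, -0.0047 to 0.23 for *GINS1*, -0.060 to 0.15 for *RFC3*, -0.012 to 0.18 for *PRIM2*, -0.11 to 0.070 for *POLD3*, -0.011 to 0.29 for *RRM1* and -0.14 to 0.16 for *TIPIN*. Counts per library went down to 90 (*E2F8*) among the 50 genes, and 3 libraries per group limit the precision of every value.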

Other observations

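Mitosis genes and G1 regulators were listed for comparison. Of 27 mitosis genes 5 were called higher and 6 lower, with a median log2 fold change of -0.11, where 25.9% and 12.4% of protein-coding genes were called. *CDC20*, an activator of the anaphase-promoting complex, stood at 38.1, 52.1 and 47.1 CPM with Ad CMV GFP and 64.4, 87.1 and 86.8 CPM with Ad CMV 3xFlag-*Esrrg* (log2 fold change 0.79 ± 0.15 SE, edgeR adjusted p = 0.00135). *CENPE*, a kinetochore motor, stood at 34.9, 52.2 and 35.3 CPM with Ad CMV GFP and 23.4, 18.2 and 14.3 CPM with Ad CMV 3xFlag-*Esrrg* (log2 fold change -1.13 ± 0.20 SE, edgeR adjusted p = 0.00095). *CENPE* has a GFP replicate, number 3, well above the other two.

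Of 13 G1 cyclins, CDKs and inhibitors 11 were tested, 3 called higher and 3 lower, beside the same 25.9% and 12.4%. *CDKN1A*, which encodes the CDK inhibitor p21, stood at 233, 281 and 265 CPM with Ad CMV GFP and 819, 1203 and 1332 CPM with Ad CMV 3xFlag-*Esrrg* (log2 fold change 2.11 ± 0.18 SE, edgeR adjusted p = 2.12e-05). *CDK6*, a partner of the D cyclins, stood at 623, 464 and 530.2 CPM with Ad CMV GFP and 276, 205 and 197 CPM with Ad CMV 3xFlag-*Esrrg* (log2 fold change -1.25 ± 0.16 SE, edgeR adjusted p = 0.000155). Neither pair of groups overlapped.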
